A study of Mus musculus with 6 samples.

Results

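The genes of glycolysis and lactate transport were followed in the distal left sciatic nerve of mice, a bundle of axons, Schwann cells, fibroblasts, vessels and immune cells. The 34 members were taken by gene symbol from 52999 symbols in the deposited tables, and all 34 were found. They are glucose carriers, the enzymes from hexokinase to lactate dehydrogenase with their isozymes, the carriers of lactate, and the kinases that set the flow into and out of the pathway. RNA was measured in 3 libraries from female and 3 libraries from male C57BL/6 mice, aged 6 to 8 weeks, 24 h after surgery on the nerve. Each library pooled the nerves of 2 animals, so that the groups hold 6 animals each and p-values measure the spread between pools. A treatment label and the design text name axotomy, the cutting of the nerve, for all 6 libraries, while the procedure written for these same libraries describes a sham operation in which the nerve was exposed and not cut. Both sexes carry the same labels, and unoperated nerves were not analysed here. The stated aim was to find molecular differences between the sexes after axotomy.

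Glycolysis splits glucose into pyruvate, and lactate dehydrogenase turns pyruvate into lactate, which leaves or enters cells through monocarboxylate carriers. Many steps have several isozymes, encoded by separate genes with their own tissue range, such as the muscle types of phosphofructokinase, phosphoglycerate mutase and enolase. In peripheral nerve, Schwann cells are glycolytic and are known to pass lactate to the axons they wrap, with the carrier MCT1, encoded by Slc16a1, as one route.

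Depth ran from 55272138 to 77610593 estimated reads per library. A count of 0 allows up to 3 reads, which is at most 0.0543 CPM, the share of reads scaled to a fixed total, in any library. Markers of Schwann cells were abundant in every library, with a list of 8 myelin genes at 1.18% to 1.88% of reads in females, against 2.40% to 3.17% in males. Markers of neuronal cell bodies were low, at 14.4 to 20.7 TPM (a level scaled for depth and transcript length) over 4 genes. Skeletal muscle transcripts set 2 libraries apart: a list of 14 muscle genes took 0.00274%, 0.196% and 0.00378% of reads in females 1 to 3, against 0.101%, 0.00184% and 0.00173% in males 1 to 3. Acta1, the skeletal muscle actin gene, was at 324 TPM in female 2 and 121 TPM in male 1, and at most 2.86 TPM in the other four libraries. Each fold change of a member is therefore followed by its value without female 2 and male 1, written as without both, where groups hold 2 libraries each. These 2 libraries differed in more than muscle. Female 2 had the lowest share of the myelin list (1.18%) and male 1 the highest (3.17%). For a list of 6 macrophage markers female 2 was highest (0.374%) and male 1 lowest (0.240%). A change without both is therefore not a measure of muscle transcripts alone.

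In these nerves the pathway was carried by 1 dominant isozyme at most of the central steps. On the TPM scale, averaged over the 6 libraries, Gapdh stood at 1780 TPM, Aldoa at 963 TPM, Pkm at 711 TPM, Ldha at 667 TPM and Eno1 at 621 TPM. Gapdh lay above every other member in each library, while Pkm, Ldha and Eno1 overlapped in their ranges. Pgk1 followed at 428 TPM, then Tpi1 at 289 TPM, Gpi1 at 247 TPM and Pgam1 at 233 TPM, the last 3 with overlapping ranges. The entry steps were far lower, with Hk1, Hk2, Hk3, Pfkl, Pfkm and Pfkp between 15.6 and 38.1 TPM. At the bottom were Aldoc, the brain-type aldolase, at 2.61 TPM and Pgam2, the muscle-type mutase, at 2.92 TPM.

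**Figure D1:**
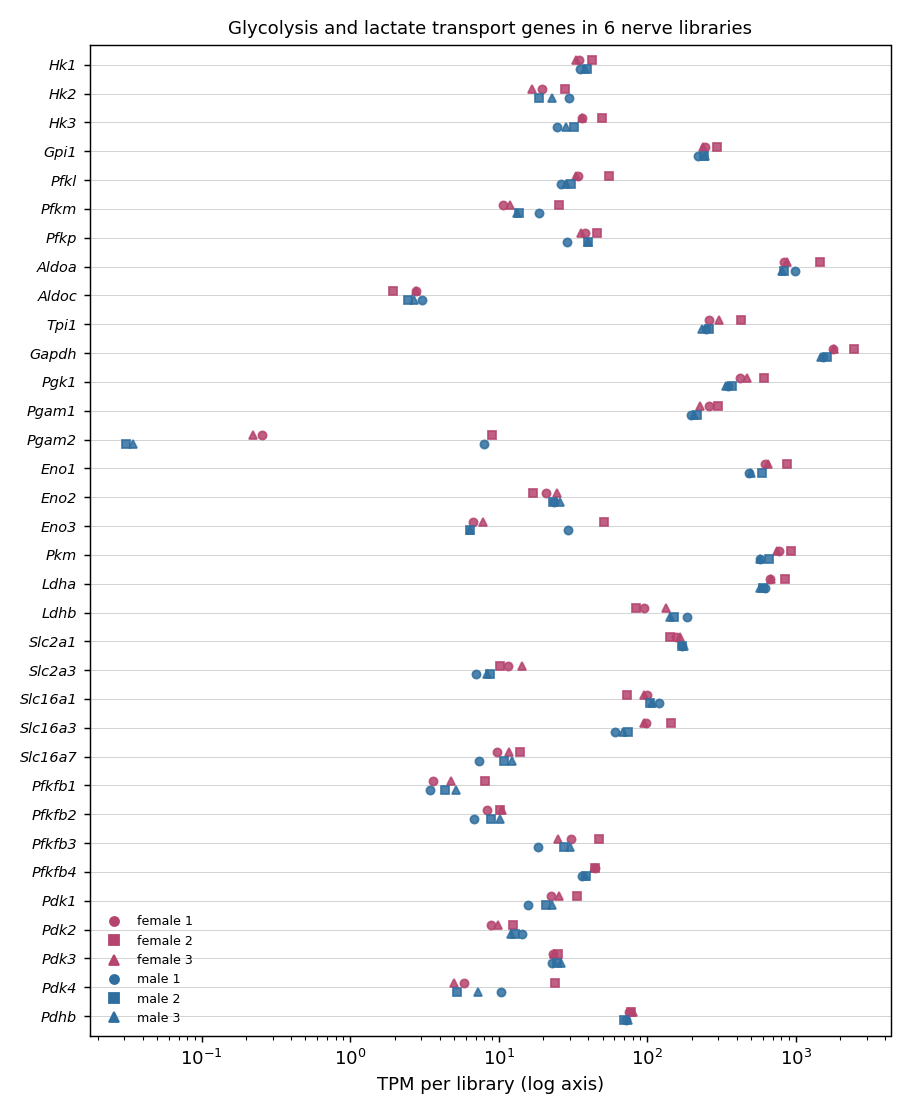
TPM of the 34 members (rows) in each library, on a log axis, with females in red above males in blue and a marker shape per replicate number. Gapdh is the highest row, near 1780 TPM, and Pgam2 spreads furthest, from 0.03 TPM in males 2 and 3 to 8.95 TPM in female 2.

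Together the members made up 0.676%, 0.928% and 0.695% of all TPM in females 1 to 3, against 0.618%, 0.636% and 0.590% in males 1 to 3. Female 2 had the highest TPM of the 6 libraries for 22 of the 34 members, and male 1 the lowest for 16. These are the 2 libraries with muscle transcripts, although male 1 was also the highest library for 5 members and male 3 had the lowest summed share.

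Between the sexes, most members were higher in female nerves by a modest amount when all 6 libraries were used. Without female 2, 19 members were higher and 15 lower in females. With adjustment over all genes, no member passed edgeR's or limma-voom's test and 5 members passed that of DESeq2. The members whose female libraries all lay above the male ones were mainly enzymes of the main line, with the lactate exporter Slc16a3 and the regulators Pfkfb4 and Pdk1. Ldhb, the lactate dehydrogenase subunit that is typical of lactate-using tissues such as heart, lay the other way. In whole tissue, fewer cells of a type and less RNA per cell cannot be told apart, and this holds for every difference given here.

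The test was edgeR's quasi-likelihood test across 19099 genes kept by a filter on low counts, which kept 33 members and left out Pgam2. At an adjusted p under 0.05 it called 0 of the 33 members higher and 0 lower in females, against 0.0157% of all genes higher and 0.0942% lower. The members' adjusted p by edgeR ran from 0.158 to 0.963. At an unadjusted p under 0.05, 13 members were higher and 1 was lower, where 5.82% of all genes were higher and 8.75% lower. limma-voom also called 0 members, against 0.0314% of all genes higher and 0.0942% lower. DESeq2 called 5, with Slc16a3, Pkm, Pgk1 and Pfkfb4 higher in females and Ldhb lower, beside 1.22% of all genes higher and 3.35% lower by that tool.

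Log2 fold changes, female minus male, were above 0 for 26 of the 33 members and below 0 for 7, where 53.5% of all genes were above 0. Their median was 0.30, against 0.02 over all genes tested. Without female 2 the median was 0.11, with 19 members above 0 and 15 below, and without both it was again 0.11, with 20 above and 13 below, against medians of 0.0073 and 0.0044 over all genes. On the scale of CPM after TMM scaling, an edgeR correction for library composition, every female library lay above every male library for 12 members (36.4%), against 9.65% of all genes. They were Hk3, Gpi1, Pfkl, Gapdh, Pgk1, Pgam1, Eno1, Pkm, Ldha, Slc16a3, Pfkfb4 and Pdk1, of which Gpi1 and Pdk1 overlapped between the sexes in TPM. Every female library lay below every male one for 2 members (6.06%), Ldhb and Pdk3, against 11.6% of all genes, and Pdk3 overlapped in TPM. Without female 2 and male 1, all 12 and both of the others remained apart and the counts were 16 (48.5%, against 23.5% of all genes) and 6 (18.2%, against 21.7%), with groups of 2 that separate more easily.

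**Figure D2:**
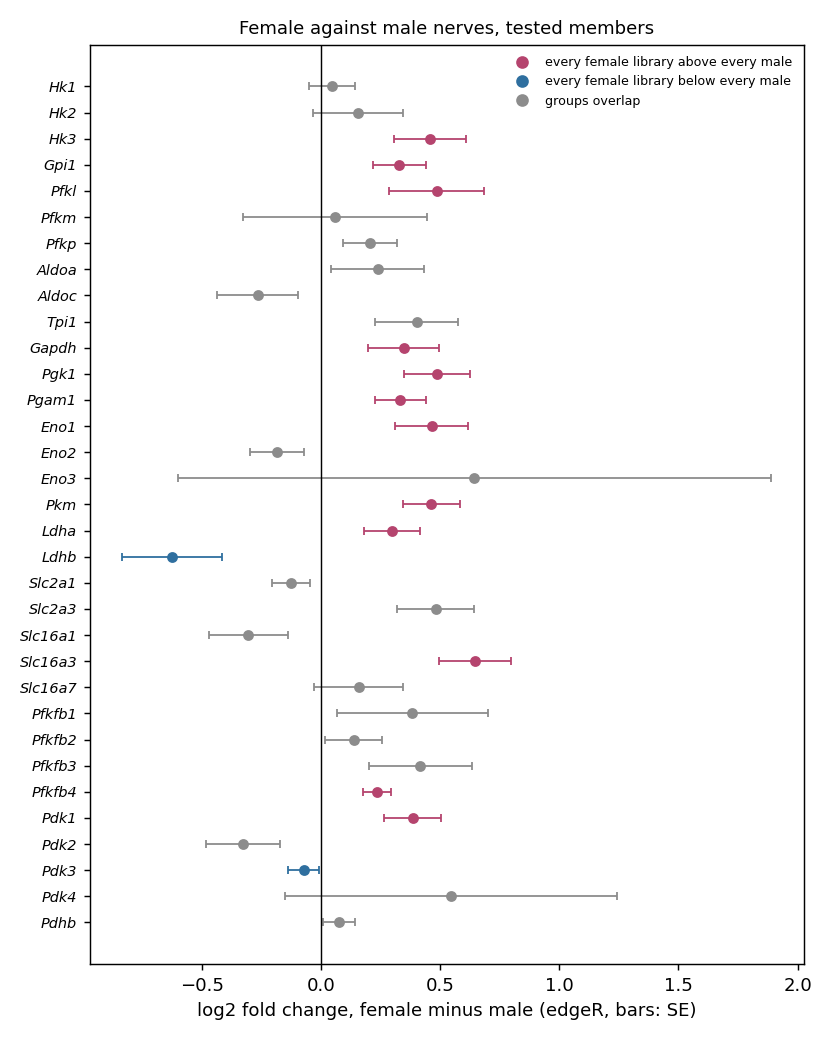
Log2 fold change of the 33 tested members, female minus male, with the standard error from edgeR as bars. Red marks the 12 members with every female library above every male one, blue the 2 with every female library below, and grey the others; Eno3, Pdk4 and Pfkm have the widest bars.

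Of the glucose carriers, Slc2a1 was slightly lower and the scarcer Slc2a3 higher in female nerves. Slc2a1, which encodes the widespread carrier GLUT1, was at 157, 143 and 165 TPM in females 1 to 3, against 171, 171 and 176 TPM in males 1 to 3. Slc2a3, which encodes the high-affinity carrier GLUT3, was at 11.6, 10.3 and 14.3 TPM in females, against 6.99, 8.68 and 8.28 TPM in males. The TPM ranges of the sexes did not overlap for either gene, in opposite directions, whereas their TMM-scaled CPM overlapped for both. Log2 fold changes were -0.12 (SE 0.08) for Slc2a1 and 0.48 (SE 0.16) for Slc2a3, with edgeR adjusted p of 0.525 and 0.255, and without both they were -0.050 and 0.62. Slc2a1 made up 92.8% ± 0.69 of the pair's TPM in females, against 95.6% ± 0.45 in males (SD, n = 3 each). Part of the Slc2a1 level belonged to Slc2a1-204, a transcript annotated as a target of nonsense-mediated decay, at 33.7, 15.8 and 25.8 TPM in females, against 43.3, 33.5 and 32.0 TPM in males. The coding transcript Slc2a1-201 was at 122, 125 and 137 TPM in females, against 127, 136 and 143 TPM in males. Each of these transcripts by itself overlapped between the sexes, unlike the summed TPM of the gene.

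Hexokinases trap glucose in the cell as glucose phosphate. Hk3, the isozyme best known from white blood cells, was at 69.7, 99.2 and 72.3 CPM in females 1 to 3, against 54.4, 66.6 and 54.5 CPM in males 1 to 3. All 3 female libraries were above all males, female 2 most of all, with a log2 fold change of 0.46 (SE 0.15) and an edgeR adjusted p of 0.251. Without both the log2 fold change of Hk3 was 0.23. Of the summed hexokinase TPM, Hk3 took 41.1% ± 1.04 in females, against 31.6% ± 4.00 in males (SD, n = 3 each). The male 1 share was the lowest, at 27.5%, and 13.3 TPM of the sum there came from Hk2-202, described below. In shares of estimated reads the difference was smaller, as given at the end. Hk1, the most widespread hexokinase, took 37.5% ± 1.83 in females, against 41.9% ± 2.34 in males. Markers of neutrophils, which are white blood cells, took 0.181%, 0.106% and 0.192% of reads in females 1 to 3, against 0.138%, 0.116% and 0.0732% in males 1 to 3. Those shares overlap, with female 2 the second lowest of all 6, where Hk3 was highest. By gene, 7 of the 8 neutrophil markers lay above 0 (median log2 fold change 0.55), where 53.5% of all genes did. For 3 of them, Mmp8, Csf3r and Mmp9, every female library lay above every male one, as for 9.65% of all genes. Of the 8, 0 were called by edgeR and 1 by DESeq2. A list of 6 macrophage markers took 0.365%, 0.374% and 0.304% of reads in females 1 to 3, against 0.240%, 0.356% and 0.307% in males 1 to 3. That list, like Hk3, was highest in female 2 and lowest in male 1, while female 3 was second lowest for the list and second highest for Hk3. All 6 macrophage markers lay above 0 (median log2 fold change 0.21), with 0 apart by sex. The part of either cell type in the Hk3 result was not tested.

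For Hk2, the inducible hexokinase, the order of the libraries differed between the gene and its coding transcript. Its TPM was 19.5, 27.8 and 16.9 in females 1 to 3, against 29.6, 18.5 and 22.9 in males 1 to 3. In male 1, 13.3 TPM of this came from Hk2-202, a short processed transcript that had 219 estimated reads there and was listed at 0 in the other five libraries. The full coding transcript, Hk2-201, was at 19.5, 27.7 and 16.7 TPM in females, against 16.2, 18.5 and 22.9 TPM in males, so that male 1 was the lowest library for it and not the highest.

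Gpi1, the isomerase that follows hexokinase, had 371, 467 and 356 CPM in females 1 to 3, against 318, 326 and 306 CPM in males 1 to 3, a log2 fold change of 0.33 (SE 0.11). That of Gpi1 was 0.20 without both and 0.12 with transcript length as an offset, and its TPM overlapped at 236 to 293 in females, against 221 to 245 in males. Phosphofructokinase, the committed step, is built from liver-type (Pfkl), muscle-type (Pfkm) and platelet-type (Pfkp) subunits. Pfkl was at 84.0, 134 and 80.6 CPM in females, against 71.0, 76.5 and 65.5 CPM in males, a log2 fold change of 0.49 (SE 0.20), and 0.21 without both. Its female values were all above the males, with female 2 far above the rest. Pfkl made up 41.9% ± 1.42 of the family's TPM in females, against 35.6% ± 0.80 in males (SD, n = 3 each). Pfkp was at 96.7, 111 and 91.7 CPM in females, against 74.2, 88.7 and 96.0 CPM in males, and the groups overlapped (log2 fold change 0.21, and 0.028 without both).

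Among the enzymes that split the sugar and pass on its carbon, Aldoa, the main aldolase, overlapped between the sexes at 725 to 1158 CPM in females, against 662 to 859 CPM in males. Aldoc, the brain-type aldolase, also overlapped, with a log2 fold change of -0.27 (SE 0.17), and -0.055 without both. Tpi1, which interconverts the triose phosphates, was at 289, 466 and 335 CPM in females 1 to 3, against 291, 285 and 248 CPM in males 1 to 3. There female 1 was just under male 1 and female 2 stood well above all others, and the log2 fold change was 0.40 and, without both, 0.23. Gapdh, the dehydrogenase of the payoff phase, was at 1622, 2235 and 1661 CPM in females, against 1553, 1491 and 1294 CPM in males. All female values were above the males, by a log2 fold change of 0.35 (SE 0.15, edgeR adjusted p 0.342), which was 0.18 without female 2 and 0.24 without both.

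Pgk1, the kinase that first returns ATP, was at 466, 657 and 511 CPM in females 1 to 3, against 411, 402 and 350 CPM in males 1 to 3. The groups did not overlap, at a log2 fold change of 0.49 (SE 0.14; 0.38 without both), with an adjusted p of 0.190 by edgeR and 0.0254 by DESeq2. Pgam1, the non-muscle mutase, was at 282, 320 and 243 CPM in females, against 224, 233 and 214 CPM in males, a log2 fold change of 0.33 (SE 0.11; 0.23 without both). Eno1, the widespread enolase, was at 850, 1205 and 896 CPM in females, against 692, 802 and 643 CPM in males, with a log2 fold change of 0.47 (SE 0.15; 0.27 without both). Both genes were higher in every female library. Eno2, the enolase of neurons, overlapped between the sexes at 22.9 to 29.3 CPM in females, against 27.1 to 32.9 CPM in males. Its transcripts were mixed, with the retained-intron form Eno2-203 leading in 3 of the 6 libraries.

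Pyruvate kinase makes the last ATP of the pathway, and its gene Pkm carries a pair of mutually exclusive exons. The M1 form is typical of adult muscle and brain, and the M2 form of most other and of dividing cells. The exons are printed because transcripts were assigned to the 2 forms here by which of these exons they hold. Capitals mark the bases at which the exons differ. They lie side by side on chromosome 9 (GRCm38, plus strand), the M1 exon at chr9:59675029-59675195 and the M2 exon at chr9:59675568-59675734, each exon 9 of 11 in its transcript.
M1 exon: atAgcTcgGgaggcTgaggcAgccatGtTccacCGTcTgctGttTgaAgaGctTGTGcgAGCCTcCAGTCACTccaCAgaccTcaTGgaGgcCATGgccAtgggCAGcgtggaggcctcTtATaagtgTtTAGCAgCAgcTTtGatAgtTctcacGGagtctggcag
M2 exon: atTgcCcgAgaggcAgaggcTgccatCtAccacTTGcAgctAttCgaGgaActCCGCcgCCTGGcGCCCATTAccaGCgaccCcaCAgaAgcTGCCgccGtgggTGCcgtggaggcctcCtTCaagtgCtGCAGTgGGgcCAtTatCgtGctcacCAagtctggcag
Each exon has 167 bases, and the pair differs at 64 of them, so that 61.7% of positions hold the same base. As deposited, 2 of the 11 Pkm transcripts hold the M1 exon, Pkm-202 and the retained-intron form Pkm-203, and 1 holds the M2 exon, Pkm-201. Pkm-201 has 2432 bases and Pkm-202 has 2041, so they also differ outside this exon. The shares below therefore do not rest on reads of the exon alone.

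The M2 form dominated in every library. It made up 83.9%, 78.6% and 83.3% of Pkm TPM in females 1 to 3, against 87.2%, 84.2% and 84.1% in males 1 to 3. M1 transcripts made up 10.8%, 15.9% and 10.4% in females 1 to 3, against 10.4%, 9.91% and 9.79% in males 1 to 3. Female 2, with the most muscle transcripts, stood alone at the top, while female 3 and male 1 nearly met. The mean M1 share was 12.4% ± 3.03 in females, against 10.04% ± 0.33 in males (SD, n = 3 each), a difference of 2.33 percentage points with an exact permutation p of 0.1, two-sided, the smallest that 3 against 3 allows. Without female 2 the difference was 0.59 points, and without both libraries with muscle transcripts 0.78 points. For the M2 share the difference was -3.24 points, and -0.55 points without both. Transcripts with neither exon took 5.32%, 5.53% and 6.27% in females, against 2.34%, 5.92% and 6.13% in males, with male 1 below the rest.

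As a whole gene, Pkm was at 1339, 1619 and 1308 CPM in females 1 to 3, against 1034, 1120 and 939 CPM in males 1 to 3. Every female library lay above every male one, at a log2 fold change of 0.46 (SE 0.12; 0.36 without both), with an adjusted p of 0.170 by edgeR and 0.00782 by DESeq2. The M2 transcript Pkm-201 by itself was at 650, 735 and 626 TPM in females, against 498, 554 and 483 TPM in males. Of 7 genes known to steer this exon choice, such as the splicing repressors Ptbp1, Hnrnpa1 and Hnrnpa2b1, all 7 lay above 0 (median log2 fold change 0.08). Over all genes 53.5% lay above 0. Of these 0 were called by edgeR, limma-voom or DESeq2, and 0 had an unadjusted edgeR p under 0.05. Hnrnpa1 was at 605, 555 and 679 CPM in females, against 551, 538 and 535 CPM in males (log2 fold change 0.18), and the kinase gene Nek2 at 4.22, 4.00 and 5.92 CPM in females, against 1.64, 3.11 and 4.72 CPM in males (0.58).

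The muscle-type isozymes followed the 2 libraries with muscle transcripts and not the sexes. Pgam2 was at 0.26, 8.95 and 0.22 TPM in females 1 to 3, against 8.01, 0.03 and 0.03 TPM in males 1 to 3, which is 326 estimated reads in female 2 and 337 in male 1 against 1 to 10 reads elsewhere. Eno3, the muscle-type enolase, was at 6.70, 50.9 and 7.84 TPM in females, against 29.5, 6.37 and 6.43 TPM in males. Both genes were high in female 2 and male 1 alone. In the other four libraries, where Acta1 was at most 2.86 TPM, Eno3 was still at 6.37 to 7.84 TPM and Pgam2 at most at 0.26 TPM. Pdk4, a kinase that shuts pyruvate dehydrogenase in muscle and other tissues during fat use, was at 11.3, 42.9 and 9.45 CPM in females, against 20.9, 9.81 and 12.8 CPM in males, again highest in female 2 and second in male 1. Log2 fold changes were 0.65 (SE 1.25) for Eno3 and 0.55 (SE 0.70) for Pdk4, errors larger than the values. Without both they were 0.20 for Eno3 and -0.12 for Pdk4, and without female 2 alone -1.09 and -0.49.

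Within Pfkm and Aldoa, whose products serve muscle and other tissues alike, the same 2 libraries differed by transcript. Pfkm-205 starts at base 98092644 of chromosome 15 (GRCm38, plus strand), upstream of Pfkm-201 at 98108466. It was at 8.47 TPM in female 2 and 3.19 TPM in male 1 and listed at 0 in the other four libraries, whereas Pfkm-201 was at 10.1, 16.6 and 11.7 TPM in females 1 to 3, against 15.3, 13.4 and 13.1 TPM in males 1 to 3. Aldoa-210 starts at base 126800046 of chromosome 7 (minus strand), upstream of Aldoa-201 at 126799254, and was at 131, 413 and 142 TPM in females, against 224, 144 and 155 TPM in males. Both alternative starts were highest in female 2 and second in male 1, and Aldoa-210 was also present, at 131 to 155 TPM, where muscle markers were near 0. The log2 fold change of Pfkm as a gene was 0.06 (SE 0.39), and -0.22 without both libraries; that of Aldoa was 0.24 (SE 0.20), -0.01 without female 2 and 0.11 without both libraries.

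**Figure D3:**
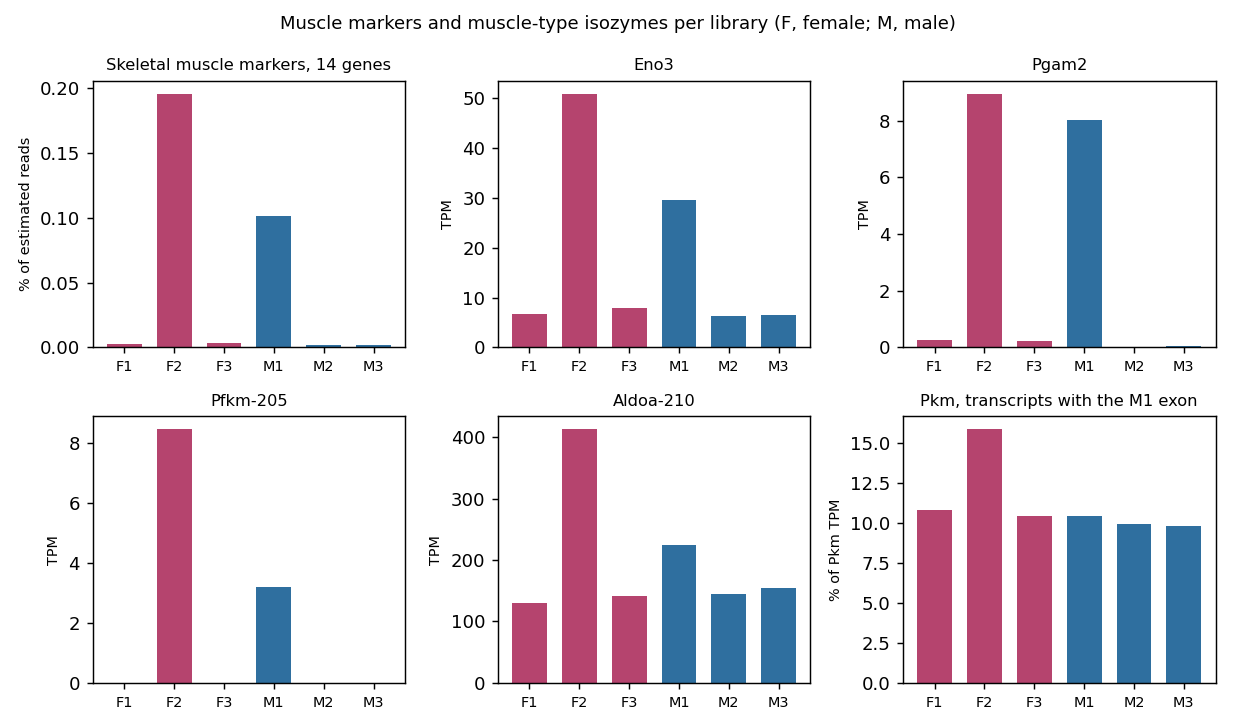
The share of reads from 14 skeletal muscle markers, the TPM of Eno3, Pgam2, Pfkm-205 and Aldoa-210, and the share of Pkm TPM from M1 transcripts, in each library (F, female, red; M, male, blue; bars start at 0). Female 2 is highest and male 1 second for Eno3, Pgam2, Pfkm-205 and Aldoa-210; for the M1 share female 2 stands alone at 15.9%.

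At the lactate step the shares of the isozymes did not overlap between the sexes. Ldha, whose subunit favours making lactate, was at 668, 826 and 672 CPM in females 1 to 3, against 644, 583 and 534 CPM in males 1 to 3. Ldhb was at 81.3, 70.5 and 113 CPM in females 1 to 3, against 167, 127 and 114 CPM in males 1 to 3. Neither gene overlapped between the sexes, in opposite directions, although female 3 and male 3 nearly met for Ldhb. Log2 fold changes were 0.30 (SE 0.12, edgeR adjusted p 0.307) for Ldha and -0.62 (SE 0.21, edgeR adjusted p 0.262) for Ldhb, and DESeq2 called Ldhb at an adjusted p of 0.0381. Without both they were 0.26 for Ldha and -0.31 for Ldhb, and without female 2 alone 0.19 for Ldha. Ldha accounted for 87.6%, 90.9% and 83.7% of the pair's TPM in females, against 76.8%, 79.9% and 80.4% in males (exact permutation p 0.1).

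Slc16a3 encodes MCT4, a lactate exporter of glycolytic cells. It was at 107, 144 and 99.4 CPM in females 1 to 3, against 78.8, 78.9 and 65.5 CPM in males 1 to 3. All female values lay above the males, at a log2 fold change of 0.65 (SE 0.15; 0.51 without both), with the smallest adjusted p of any member, 0.158 by edgeR and 0.00377 by DESeq2. Slc16a1, which encodes MCT1, was at 219, 147 and 196 CPM in females, against 269, 218 and 206 CPM in males, a log2 fold change of -0.30 (SE 0.16, edgeR adjusted p 0.449). Female 1 and male 2 nearly coincided there, so the groups overlapped, and the log2 fold change was -0.16 without female 2, -0.18 without male 1 and -0.032 without both. Slc16a7, which encodes the high-affinity carrier MCT2, was lowest of the 3 carriers, at 11.1 to 15.2 CPM in females, against 8.59 to 13.3 CPM in males.

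Set against each other on the TPM scale, the shares of the 2 main carriers did not overlap between the sexes, while their order turned in female 2 alone. Slc16a3 made up 47.4%, 62.6% and 47.0% of the carriers' TPM in females 1 to 3, against 32.2%, 39.2% and 36.6% in males 1 to 3. For Slc16a1 the shares were 47.9%, 31.5% and 47.2% in females, against 63.9%, 55.1% and 56.8% in males. Slc16a1 led in every male library and, by less than 1 percentage point, in females 1 and 3, while Slc16a3 led in female 2. Female 2 had the most muscle transcripts, and also the lowest share of myelin markers (1.18% of reads) and the highest of macrophage markers (0.374%). Male 1, the other library with muscle transcripts, had the lowest Slc16a3 share, at 32.2%. The part of these cell types in the carrier shares was not tested. Mean differences were 16.3 percentage points for Slc16a3 and -16.4 for Slc16a1, and without female 2 and male 1 they were 9.27 and -8.39 points.

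The Slc16a3 level came from several coding transcripts. Slc16a3-207 was at 38.7, 68.9 and 38.4 TPM in females 1 to 3, against 16.4, 32.1 and 30.6 TPM in males 1 to 3. Slc16a3-201 was at 30.8, 43.8 and 31.9 TPM in females, against 30.3, 26.8 and 22.7 TPM in males. Each was higher in every female library, and Slc16a3-207 led the gene in TPM in all libraries but male 1. In estimated reads Slc16a3-201 led in every library, with 1789 to 4470 reads. Slc16a3-207, which has only 974 bases, held 611 to 2270.

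Myelin markers, like Ldhb, were lower in female nerves. The list of 8 myelin markers, among them Mbp and Mag, took 1.38%, 1.18% and 1.88% of reads in females 1 to 3, against 3.17%, 2.42% and 2.40% in males 1 to 3. All 8 lay below 0 (median log2 fold change -0.80), and for 7 the females were all below the males. With adjustment over all genes, 0 of the 8 were called by edgeR or limma-voom, 7 by DESeq2, and 7 had an unadjusted edgeR p under 0.05. Of all genes, 11.6% had every female library below, DESeq2 called 3.35% lower, and 8.75% were lower at that unadjusted p. From lowest to highest, the libraries stand in the same order for Ldhb in CPM as for the myelin list in its share of reads, namely female 2, female 1, female 3, male 3, male 2 and male 1. Slc16a1 was apart by sex on the TPM scale, at 99.0, 73.2 and 95.2 TPM in females 1 to 3, against 120, 105 and 107 TPM in males 1 to 3, but in CPM female 1 stood above males 2 and 3. A second Schwann cell list of 5 genes came to 0.0851% to 0.114% of reads in females, against 0.118% to 0.152% in males. Fibroblast markers were lower in females as well, at 0.511% to 0.585% of reads against 0.691% to 0.894% in males, with 3 of 5 apart by sex. The part of these cell types in the Ldhb and Slc16a1 values was not tested. Shares overlapped between the sexes for adipocyte markers (0.0230% to 0.0705% in females, highest in female 2, against 0.0268% to 0.0449% in males), for endothelial markers (0.0244% to 0.0364%, against 0.0255% to 0.0317%) and for red blood cell markers (0.559% to 0.906%, against 0.412% to 0.845%).

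**Figure D4:**
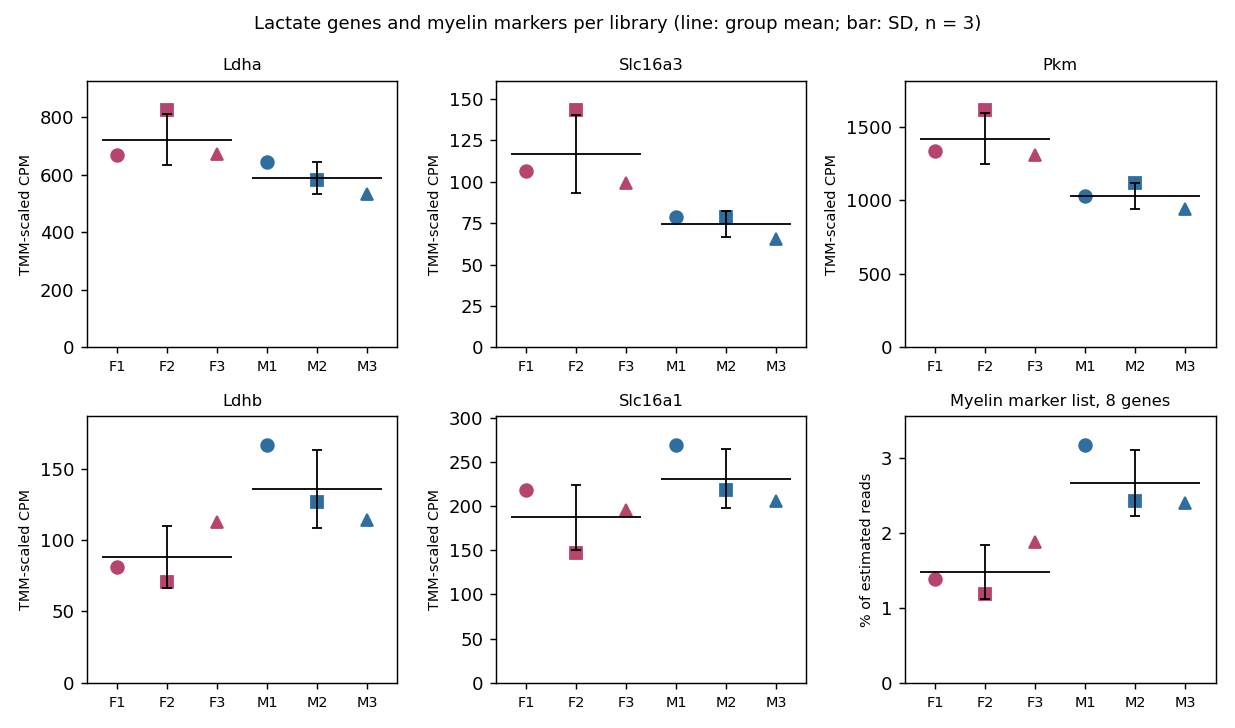
TMM-scaled CPM of Ldha, Slc16a3, Pkm, Ldhb and Slc16a1 and the share of reads from 8 myelin markers in each library (F, female, red; M, male, blue), with the group mean as a line and the SD as a bar (n = 3). The females lie above the males for Ldha, Slc16a3 and Pkm and below them for Ldhb and the myelin list; Slc16a1 overlaps.

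Promoters of these 4 lactate genes are printed because the isozyme and carrier shares above rest on these genes. Each is the window of 250 bases before a RefSeq gene start in GRCm38.p6, given 5′ to 3′ on the gene's strand. Ldha has 2 windows in the RefSeq table, and the other, chr7:46846832-46847081, holds 0 of the motifs marked here and is not printed. Capitals mark ACGTG and its reverse complement CACGT, a form of the core that hypoxia-inducible factors bind. Other forms of the core, such as GCGTG, were not searched. The letters CACGTG hold both marked runs and are also the E-box bound by Myc and related factors. The windows are Ldha chr7:46845554-46845803 (plus), Ldhb chr6:142507958-142508207 (minus), Slc16a1 chr3:104638414-104638663 (plus) and Slc16a3 chr11:120948817-120949066 (plus).
Ldha: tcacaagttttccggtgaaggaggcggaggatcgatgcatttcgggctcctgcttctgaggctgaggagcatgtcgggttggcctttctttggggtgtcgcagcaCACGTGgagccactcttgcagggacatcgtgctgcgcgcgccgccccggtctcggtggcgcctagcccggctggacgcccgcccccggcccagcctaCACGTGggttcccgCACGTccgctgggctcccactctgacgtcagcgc
Ldhb: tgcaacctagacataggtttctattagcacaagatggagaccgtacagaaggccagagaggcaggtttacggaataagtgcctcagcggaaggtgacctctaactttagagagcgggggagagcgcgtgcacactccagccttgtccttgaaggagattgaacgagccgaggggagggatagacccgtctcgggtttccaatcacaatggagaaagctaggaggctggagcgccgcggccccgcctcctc
Slc16a1: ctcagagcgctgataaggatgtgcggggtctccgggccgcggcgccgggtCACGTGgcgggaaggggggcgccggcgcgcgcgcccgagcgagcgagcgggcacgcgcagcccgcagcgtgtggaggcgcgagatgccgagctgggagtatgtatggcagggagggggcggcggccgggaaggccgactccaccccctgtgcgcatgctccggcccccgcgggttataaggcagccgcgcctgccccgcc
Slc16a3: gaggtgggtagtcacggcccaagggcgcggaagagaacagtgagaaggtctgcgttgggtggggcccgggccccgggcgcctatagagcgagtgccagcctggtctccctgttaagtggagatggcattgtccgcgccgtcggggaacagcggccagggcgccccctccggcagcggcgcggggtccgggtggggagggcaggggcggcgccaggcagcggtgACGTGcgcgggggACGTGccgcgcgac
The Ldha window printed held 3 such stretches, 2 of them CACGTG, Slc16a3 held 2 and Slc16a1 held 1, a CACGTG, while these letters are not in the Ldhb window. Over the 32 members with a window in the RefSeq table, 20 of 51 windows (39.2%) held the motif on either strand, against 5444 of 32851 windows of all genes (16.6%). Windows of a gene can overlap, as for Aldoa, where overlapping windows hold the same site. By gene, 16 of the 32 members held a match, a count that was not taken over all genes. Slc2a3 and Slc16a7 were not matched. A match is a run of letters in a window and describes no binding. Of 19 genes of the hypoxia response 12 lay above 0 and 7 below (median log2 fold change 0.03), where 53.5% of all genes lay above 0. Of them 0 were called by edgeR or limma-voom and 3 by DESeq2, and at an unadjusted edgeR p under 0.05, 2 were higher and 2 lower. Over all genes DESeq2 called 1.22% higher and 3.35% lower, and 5.82% were higher and 8.75% lower at that unadjusted p. The 2 of smallest p lay in opposite directions: Ankrd37, a hypoxia-induced gene, was at 4.94, 7.86 and 4.96 CPM in females, against 2.66, 3.38 and 2.21 CPM in males (log2 fold change 1.10), and Ndrg1, a hypoxia-induced gene that Schwann cells also need, was at 782, 796 and 1150 CPM in females, against 1746, 1496 and 1420 CPM in males (-0.77).

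Regulators of the pathway's flow were low and mixed. The Pfkfb enzymes make and break the sugar bisphosphate that switches phosphofructokinase on. Pfkfb4 was at 82.4, 78.9 and 80.7 CPM in females 1 to 3, against 69.3, 69.7 and 66.3 CPM in males 1 to 3. The groups were tight, with an SD of 1.71 CPM in females, against 1.89 CPM in males, and did not overlap. Pfkfb4 had the smallest SE of the members, at a log2 fold change of 0.24 (SE 0.06; 0.26 without both), with an adjusted p of 0.165 by edgeR and 0.0264 by DESeq2. Much of the Pfkfb4 level was noncoding, since the processed transcript Pfkfb4-205 led in all 6 libraries, at 19.96, 19.6 and 19.4 TPM in females, against 20.2, 18.8 and 16.8 TPM in males. The coding transcript Pfkfb4-203 was at 17.4, 16.0 and 16.5 TPM in females, against 11.3, 13.8 and 14.8 TPM in males, apart by sex where Pfkfb4-205 overlapped. Pfkfb3, the strongly kinase-type member, was at 82.3, 119 and 67.4 CPM in females, against 56.9, 71.6 and 72.8 CPM in males, with overlap (log2 fold change 0.42, and 0.052 without both). Pfkfb1 and Pfkfb2 overlapped too, at log2 fold changes of 0.38 (SE 0.32) and 0.14 (SE 0.12), and of -0.11 and 0.032 without both.

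Pyruvate dehydrogenase opens the way from pyruvate into mitochondria, and the Pdk kinases close it. Pdk1, a hypoxia-induced kinase, was at 52.1, 69.0 and 53.9 CPM in females 1 to 3, against 40.5, 47.4 and 46.1 CPM in males 1 to 3, with a log2 fold change of 0.39 (SE 0.12, edgeR adjusted p 0.220), and 0.18 without both. Pdk2, the most widespread kinase, was at 13.2, 18.8 and 15.0 CPM in females, against 22.7, 19.0 and 17.2 CPM in males, a log2 fold change of -0.33 (SE 0.15; -0.36 without both). In CPM Pdk1 was apart by sex and Pdk2 was not, while in TPM female 1, at 22.6, was just under male 3, at 22.9, for Pdk1. Of the family's TPM, Pdk1 made up 37.4% ± 2.25 in females, against 30.4% ± 4.71 in males, and Pdk2 14.5% ± 1.15 in females, against 20.1% ± 2.43 in males (SD, n = 3 each). Pdk3 was nearly flat at 24.8, 25.6 and 24.2 CPM in females, against 25.8, 26.1 and 26.5 CPM in males, groups that did not overlap although the log2 fold change was -0.07 (SE 0.07; -0.10 without both). Pdhb, a subunit of the dehydrogenase itself, was at 60.1, 58.0 and 59.3 CPM in females, against 60.2, 54.0 and 53.9 CPM in males.

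**Figure D5:**
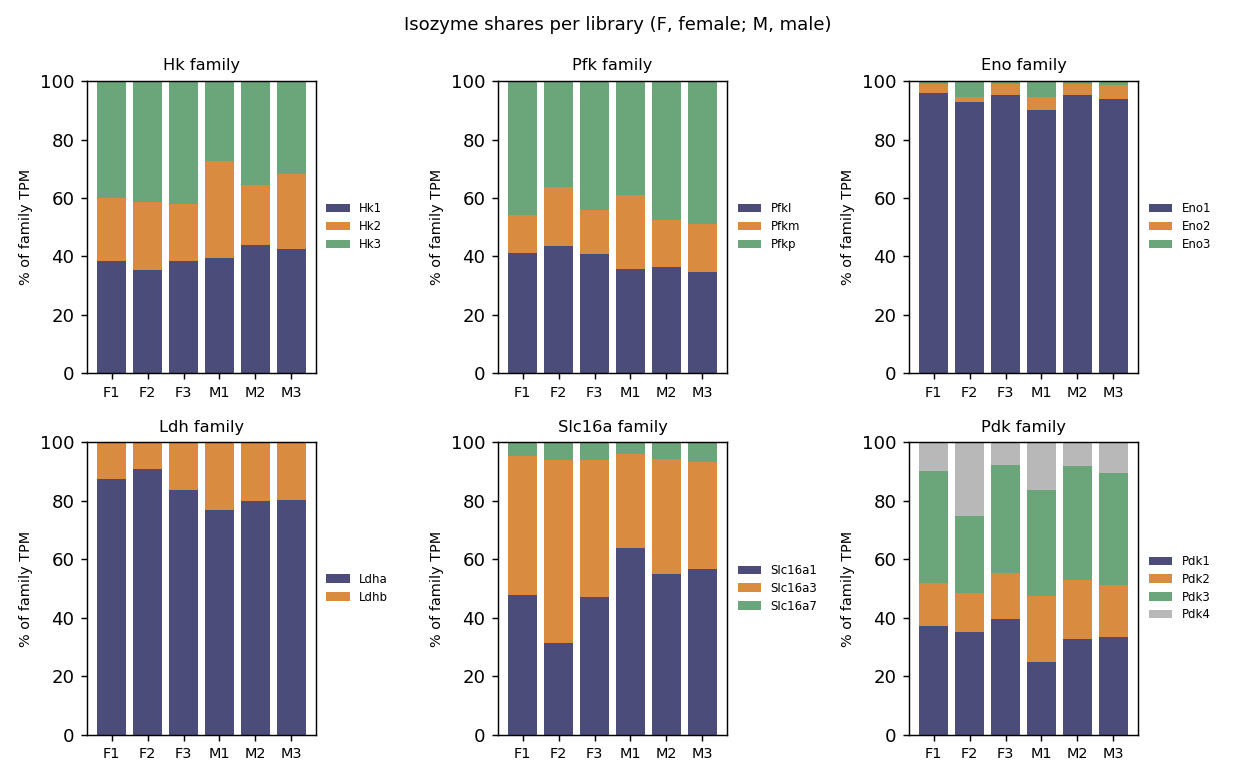
Share of each isozyme in the summed TPM of its family, per library (F, female; M, male), for 6 families; each bar adds up to all of the family's TPM. Ldha takes 83.7% to 90.9% in females, against 76.8% to 80.4% in males, and Slc16a1 31.5% to 47.9% in females, against 55.1% to 63.9% in males.

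Across 10 families 24 isozyme shares were compared by exact permutation tests over libraries. For 10 of them the sexes did not overlap, 5 higher in females (Hk3, Pfkl, Ldha, Slc16a3 and Pdk1) and 5 lower (Hk1, Eno2, Slc2a1, Slc16a1 and Pdk2). Each of these had an exact two-sided p of 0.1, the smallest that 3 libraries against 3 allow, and 0.24 after adjustment over the 24. If sex labels were exchangeable between libraries, a share would come out apart at that rate of 0.1. The shares of a family add up to all of its TPM, so a rise and a fall within it are not fully separate results. Slc16a3 (16.3 percentage points) and Slc16a1 (-16.4), Hk3 and Hk1, and Pdk1 and Pdk2 are such pairs. The aldolase, mutase and enolase families kept their dominant isozyme in every library, with Aldoa at 99.7% or more of aldolase TPM, Pgam1 at 96.1% or more of mutase TPM and Eno1 at 90.1% or more of enolase TPM. Shares rest on transcript models: of the members, 30 of 34 had the same leading transcript in all 6 libraries, and Pfkp, Aldoc, Eno2 and Slc16a3 did not. The leading form in TPM is noncoding for Slc16a7 and Pfkfb4 in all 6 libraries and for Eno2 in 3, so that the TPM of these genes includes noncoding RNA. For Slc16a7 that form, Slc16a7-203, has only 292 bases. It held 13.6 to 27.6 estimated reads per library, of 645 to 1045 for the gene, while the coding Slc16a7-206 held 325 to 586.

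Other genes of sugar metabolism gave no call by edgeR in any list, where 0.0157% of all genes were called higher and 0.0942% lower. The counts above 0 that follow stand beside 53.5% of all genes above 0. Of 8 kept further glycolytic genes, 6 were above 0 (median 0.05), and the glycerol phosphate dehydrogenases Gpd1 and Gpd2 had log2 fold changes of -0.43 and 0.13. Of 9 kept sugar carriers and carrier chaperones, 5 were above 0 (median 0.18), with the carriers Slc2a9 at 0.60 and Slc2a6 at 0.34. Glycogen genes had 12 of 18 above 0 (median 0.06), among them Pygl, the liver-type phosphorylase, at 0.41. The list of the pentose phosphate pathway had 6 of 9 above 0 (median 0.03), with its dehydrogenases Pgd at 0.33 and G6pdx at 0.17. Genes of pyruvate entry into mitochondria had 6 of 10 above 0 (median 0.04), with the phosphatase Pdp2 at -0.17 and the dehydrogenase subunit Dlat at 0.09. Gluconeogenesis had 3 of 5 above 0 (median 0.19), with Pck2 at 0.19 and Fbp2, the muscle-type phosphatase, at 1.41 (SE 1.19), highest in female 2. By DESeq2, 1 glycogen gene was called and 0 in the other 5 of these lists, where 1.22% of all genes were called higher and 3.35% lower. At an unadjusted p under 0.05, 8 genes were higher and 1 was lower by edgeR over the 6 lists. Over all genes, 5.82% were higher and 8.75% lower at that unadjusted p.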

How the data were processed

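Poly-A selected, stranded RNA-seq libraries were sequenced as paired reads of 100 nt, per the labels' protocols. Tools named in the submitters' processing notes are Trimmomatic 0.39, MultiQC 1.9 and Salmon 1.5.2. Estimated counts were deposited for each of 140789 transcripts with no normalization, per the file headers. Per the file headers, the deposited TPM is Salmon's own, from each transcript's count and effective length. The genome build and annotation release were not given in the sources used here.

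Both measures were summed by symbol over a gene's transcripts, and summed counts were rounded. Aldoa sums 2 gene IDs that share the symbol. The members and all gene lists were chosen with earlier results of these data known. Genes kept by filterByExpr were scaled by TMM and tested with edgeR 4.0.16 (quasi-likelihood, robust, no covariate) in R 4.3.3, with Benjamini-Hochberg adjustment over all 19099 genes. limma 3.58.1 and DESeq2 1.42.0 were alternatives. Isozyme shares were compared by exact permutation tests in scipy 1.17.1. All members are named, and of each list of other pathway genes the 2 of smallest p. On simulated counts for female against male over 19099 genes, edgeR recovered 19.7%, 65.2% and 86.8% of genes changed by 0.5, 1 and 2 on the log2 scale, with 8 false calls. The common biological coefficient of variation was 0.182. Counting limits cover counting error only. Every pair of libraries differed by more than sampling noise (chi-square of at least 26.3 per degree of freedom).

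Transcripts were matched by ID to GENCODE M21 (GRCm38), which holds 137161 (97.4%) of them, and exons and coordinates come from it. Promoters are from the RefSeq table. Near copies at 95% identity over 300 bases, searched with BLAST 2.17.0 for the 32 members whose leading transcript was in M21, took at most 0.613% of a member's reads. Reads that fit several transcripts were divided by Salmon's estimate, so transcript shares carry an error that was not analysed here. Whether counting used strand was not given in the sources used here.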

Additional observations from a re-analysis of the deposited data

How the results depend on the processing

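The number of genes called by edgeR over the whole table, 21, was 190 with no filter on low counts and 3 with the replicate block, and DESeq2 called 872. Leaving out 1 library gave 4 to 210 calls, with 210 without female 3. The members called stayed at 0 in every setting but DESeq2, which called 5; with the replicate block it was 0. Same-numbered libraries did not deviate together (correlations of -0.10, -0.19 and 0.02), so their numbers are not read as pairs.

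Of 495 alternative fold changes of members, 470 kept direction and side of the threshold, 5 newly passed it by DESeq2 and 20 turned round, in 8 members. Without both libraries with muscle transcripts these were Hk1 (-0.065), Hk2 (-0.14), Pfkm (-0.22), Slc16a7 (-0.16), Pfkfb1 (-0.11) and Pdk4 (-0.12). Pfkm was -0.028 with the replicate block and -0.043 by limma-voom, and a length offset gave -0.040 for Hk1 and -0.17 for Hk2. With 1 library left out, the lowest and highest log2 fold changes were -0.064 and 0.11 for Hk1, -0.085 and 0.30 for Hk2, -0.45 and 0.29 for Pfkm, -0.0075 and 0.36 for Aldoa, -1.09 and 1.93 for Eno3, -0.0081 and 0.28 for Slc16a7, -0.065 and 0.63 for Pfkfb1, and -0.49 and 0.92 for Pdk4. The lowest came without female 2 for 7 of the 8 and without male 1 for Slc16a7.

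Members with every female library below every male one numbered 2 to 5 (6.06% to 15.2%) with 1 library left out, against 15% to 18.2% of all genes. Those with every female library above numbered 13 to 15 (39.4% to 45.5%), against 14% to 16.4% of all genes. Without the 2 libraries with muscle transcripts 6 (18.2%) were below, against 21.7% of all genes. These counts were chosen after seeing the data, and smaller groups separate more easily. Isozyme shares apart by sex numbered 10 in estimated reads, 10 to 13 with 1 library left out and 15 without those 2 libraries. Of 236 alternative share differences, 26 in 9 shares changed sign, 0 of them among the 10 apart by sex. In estimated reads the Hk3 share differed by 4.85 percentage points (9.47 in TPM). The M1 share of Pkm differed by 0.59 to 3.30 points with 1 library left out, by 2.13 in reads, and by 2.33 paired by number (exact p 0.25). The causes were not tested. Members with the fewest reads were Pgam2 (1 in males 2 and 3) and Pfkfb1 (180 in male 2), whose values are the least precise by depth.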
